A study of Drosophila melanogaster with 4 samples.

Results

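The enzymes Tpi, Gapdh1 and Pglym78 of glycolysis and Tps1 of trehalose synthesis were measured in heads of Drosophila melanogaster males fed strychnine. They were found as the spots whose symbol in the platform annotation was one of these 4 names, and they made up 4 of 2664 named genes with a value, and 14 of 27648 spots. In the centred log2 ratios Pglym78, Gapdh1 and Tpi lay below 0 and Tps1 above 0 in each of the 3 distinct sets of values, with means between -0.93 and 0.75. The genes were selected on this pattern, so those means are a description and carry no test. Other spots in the same regions of the slide had medians on the same side of 0. With that regional level subtracted the 4 means were -0.31 for Pglym78, -0.27 for Gapdh1, -0.06 for Tpi and 0.31 for Tps1.

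Treated flies were unmated males of the wild-type strain Oregon-R, 3 to 4 days old at the start, which ate food holding 3.33 mg/ml of strychnine over 7 days. Control males of the same strain, sex and age were kept on normal food. Strychnine is a plant alkaloid that blocks glycine-gated chloride channels of vertebrates. The comparison asked which transcripts of the head differ in amount after chronic feeding. Each of 4 two-colour cDNA arrays set RNA from pooled heads of treated males against that from a parallel control pool, with treated RNA in Cy5 on replicates 1 and 2 and in Cy3 on replicates 3 and 4. Pools came from vials of 30 flies, so a value is an average over many animals, and no array gives the spread between single flies.

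Glycolysis splits glucose into trioses and oxidises them to pyruvate. Tpi, triose phosphate isomerase, interconverts the triose phosphates; Gapdh1, glyceraldehyde 3-phosphate dehydrogenase, carries out the oxidising step; and Pglym78, phosphoglycerate mutase, moves the phosphate group before enolase acts. Insects carry most of their blood sugar as the disaccharide trehalose. It is made largely in the fat body, a tissue also present in the head, by trehalose 6-phosphate synthase, the product of Tps1, from glucose 6-phosphate and UDP-glucose. Glucose 6-phosphate is therefore a branch point from which sugar goes either into glycolysis or into trehalose, and glycolysing cells such as glia take trehalose up and cleave it with trehalase.

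Replicates 1 and 3 carried identical numbers at all 7643 spots where both had one, in spite of labels with exchanged dyes. They were therefore counted once and are called the shared set, beside replicate 2 and replicate 4. The direction of the ratio, Cy5 over Cy3 or treated over control, is not stated in the sources used, so no value is called an increase or a decrease after strychnine. Values are log2 ratios after subtraction of each set's median over all spots, with medians of -0.121 for the shared set, -0.379 for replicate 2 and -0.621 for replicate 4. A tested unit is a named gene or an unnamed pair of duplicate spots with a value in all 3 sets, 4002 in all, of which 2027 were named genes. For the labelled head tissue, 9 of 11 photoreceptor genes on the array had a value in at least 1 set, among them trpl, a light-activated channel gene, and inaD, its scaffold. Only 5 of them had a value in all 3 sets. Over all named genes on the array 2664 of 6793 had a value, and it was 3 of 9 for listed glial genes and 7 of 9 for listed muscle genes. Ratios give no expression level, and in pooled tissue fewer cells of a type and less RNA per cell cannot be told apart.

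Tpi (gene ID 43582) had centred log2 ratios of -0.85 for the shared set, -0.78 for replicate 2 and -0.69 for replicate 4. Its 2 measured spots stayed within 0.148 of each other in every set. The mean was -0.77 ± 0.08 (SD, n = 3 sets). A second pair of Tpi spots elsewhere on the slide had no value in any set, so the gene rests on 1 pair.

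Gapdh1 (gene ID 35728) was read by 2 separate pairs of spots in different blocks of the slide. The first pair gave -0.76 for the shared set, -0.90 for replicate 2 and -0.49 for replicate 4. The second pair gave -0.76, -0.88 and -0.92 in the same order. Both pairs were thus below 0 in every set, close to each other in the shared set and on replicate 2, and apart on replicate 4. The gene's mean over its 4 spots was -0.78 ± 0.09 (SD, n = 3 sets). Gapdh1 has a close paralogue, Gapdh2, not analysed here, and a cDNA spot may bind transcripts of both copies.

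Pglym78 (gene ID 43447) lay lowest, at -1.05 for the shared set, -0.97 for replicate 2 and -0.78 for replicate 4. The mean was -0.93 ± 0.14 (SD, n = 3 sets). Its duplicate spots differed by 0.0770 in the shared set, but by 0.579 on replicate 2 and 0.605 on replicate 4, where the median pair on the slide differed by 0.158 and 0.168. On replicate 2 its first spot read -0.68 and the second -1.26, and on replicate 4 the order was reversed, at -1.08 and -0.47. The average of the pair was therefore steadier across sets than either spot.

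Tps1 (gene ID 33642) lay above 0, at 0.78 for the shared set, 0.66 for replicate 2 and 0.82 for replicate 4. Duplicate spots differed by at most 0.147. The mean was 0.75 ± 0.08 (SD, n = 3 sets), and as for Tpi a second pair had no value in any set. The 3 glycolytic genes and Tps1 lay on opposite sides of 0 in every set, which follows from how they were chosen. Read on a linear scale, the 4 means correspond to ratios of 0.524 for Pglym78, 0.581 for Gapdh1, 0.586 for Tpi and 1.69 for Tps1.

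**Figure D1:**
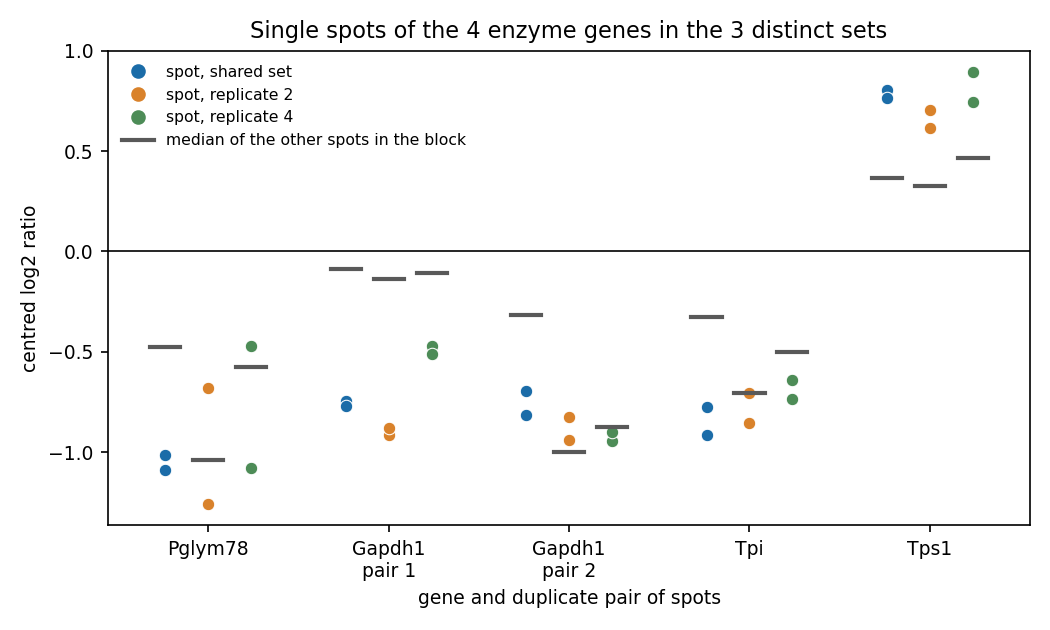
Centred log2 ratio (vertical axis) of each measured spot of Pglym78, Gapdh1, Tpi and Tps1 in the 3 distinct sets, with grey bars at the median of the other spots in the same block of the slide. All spots of the glycolytic genes lie below 0 and all spots of Tps1 above 0, and the grey bars lie on the same side of 0 as the spots.

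Among the glycolytic genes Gapdh1 and Tpi did not differ beyond their spread, with means 0.01 apart and SDs over sets of 0.09 and 0.08. In the centred values Pglym78 lay below Gapdh1 in all 3 sets, by 0.29 for the shared set, 0.08 for replicate 2 and 0.07 for replicate 4. The difference of the means, 0.15, was just above the SD of Pglym78. On replicate 2 the 2 spots of Pglym78 were themselves 0.579 apart. This order of the means was reversed with block medians subtracted, where Pglym78 was above Gapdh1, at -0.232 against -0.359. Ranks of the centred values within a set varied more. Pglym78 ranked at percentile 1.67 of all units for the shared set, 10.6 for replicate 2 and 9.45 for replicate 4. Tpi ranked at percentile 4.02, 15.7 and 12.6, and Tps1 at 83.3, 81.8 and 92.0. In the mean of the sets Pglym78 lay at percentile 2.12 and Tps1 at 87.3.

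A single sign in all 3 sets was common on these arrays. It was negative for 27.0% of the 4002 units and positive for 28.5%, which is the background against which the choice of 3 negative genes and 1 positive gene stands. With limma and an adjusted p below 0.05, the mean of the sets was negative for 2.02% of units and positive for 8.60%. All 4 genes were among those 81 negative and 344 positive units, and since they were chosen on this contrast nothing is read from it. Of the 4, only Pglym78 was among the units called with scale normalization or, chosen after seeing the data, with replicates 1 and 3 centred apart, and 0 were called without centring or with block medians subtracted. A single sign in all 3 sets was also found for 6 further genes of the glycolysis and trehalose lists that were not chosen, namely Hex-A, Hex-C, Ald1, Pgk and Tret1-1 on the negative side and Tret1-2 on the positive side.

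All 4 genes lay in blocks of the slide whose other spots had medians on the same side of 0, to unlike degrees. The slide was read as 48 blocks of 24 rows and 24 columns of spots, and block medians ran from -1.04 to 0.79 on replicate 2. In the block of Pglym78 the other spots had a median of -0.48 for the shared set, -1.04 for replicate 2 and -0.58 for replicate 4. Pglym78 was thus 0.57 below its surroundings in the shared set, 0.07 above them on replicate 2 and 0.20 below them on replicate 4. The block of Tpi had medians of -0.33, -0.70 and -0.50, so that Tpi lay 0.52 below it in the shared set and 0.08 and 0.19 below it on replicates 2 and 4.

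Tps1 was in a block with positive medians of 0.37, 0.33 and 0.46, and it exceeded them by 0.42, 0.33 and 0.35. Its distance from the surrounding spots was therefore about the same in all 3 sets. For Gapdh1 the 2 pairs lay in unlike surroundings. The block of the first pair had medians of -0.09, -0.14 and -0.11, and Gapdh1 was 0.67, 0.76 and 0.38 below them. The block of the second pair had medians of -0.32, -1.002 and -0.87, and there Gapdh1 was 0.44 below, 0.12 above and 0.05 below. On replicate 2 the pairs thus read 0.01 apart while their surroundings were 0.86 apart, and on replicate 4 they read 0.43 apart with surroundings 0.77 apart.

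After subtraction of block medians and a local regression within blocks, Tps1 had log2 ratios of 0.42 for the shared set, 0.13 for replicate 2 and 0.39 for replicate 4. Its mean was then 0.31 ± 0.16 (SD, n = 3 sets). Gapdh1 was at -0.38, -0.29 and -0.15, a mean of -0.27 ± 0.12. Both kept 1 sign in all 3 sets. For Gapdh1 this holds for the average of its 2 pairs. The first pair alone was at -0.38, -0.58 and -0.42, a corrected mean of -0.46. The second pair changed sign between sets, at -0.38, -0.001 and 0.12, a mean of -0.09.

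Pglym78 was also below 0 in each corrected set, at -0.67, -0.03 and -0.24, with a mean of -0.31 ± 0.33 (SD, n = 3 sets). Tpi changed sign between sets, at -0.36 for the shared set, 0.10 for replicate 2 and 0.08 for replicate 4, and its mean was -0.06 ± 0.27. The corrected means of Pglym78, Gapdh1 and Tps1 lay at percentiles 15.4, 18.4 and 84.9 of all units, and that of Tpi at percentile 46.1. On the corrected scale limma called 0 of 4002 units, with 835 at an unadjusted p below 0.05. A correction of this kind also removes signal where co-located genes truly share a change, and which part of each value is regional was not tested further.

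**Figure D2:**
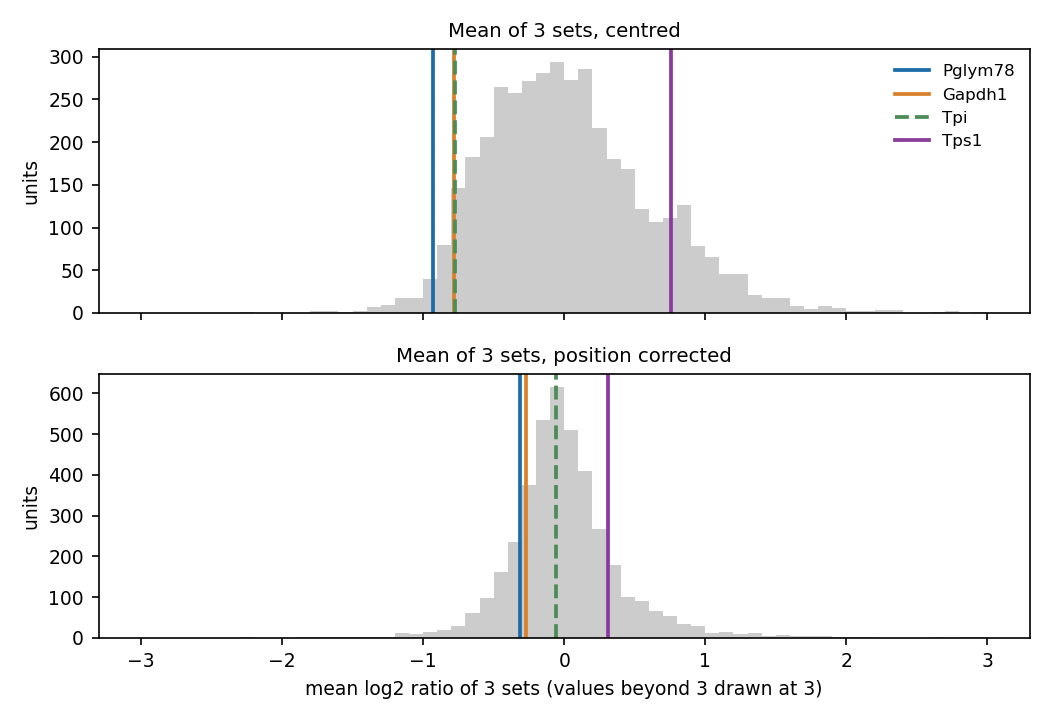
Number of units (vertical axis) by mean log2 ratio of the 3 sets in bins of 0.1, for the centred values above and the position corrected values below, with the 4 enzyme genes as vertical lines. The spread of all units narrows with the correction, and Tpi moves from -0.77 to -0.06, into the middle of the distribution.

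The dye exchange gave a second reading. Were the values Cy5 over Cy3, a treatment effect would change sign when the dyes are exchanged, and it would be estimated by (replicate 2 minus replicate 4) divided by 2. That difference was -0.10 ± 0.25 for Pglym78, -0.09 ± 0.24 for Gapdh1, -0.05 ± 0.24 for Tpi and -0.08 ± 0.24 for Tps1 (limma SE). Each was smaller than its SE, and Tps1 had the same sign as the glycolytic genes. Limma draws these SEs toward a value shared by all units, whose median SE was 0.25, so they say little about the single gene. The choice of genes with 1 sign in all sets bears on the size of this difference, so no test is given for them. Limma called 0 of 4002 units in this contrast at an adjusted p below 0.05 (0% of units), with 158 at an unadjusted p below 0.05. The opposite signs of Tps1 and the glycolytic genes would describe treatment only if the deposited values are already treated over control.

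**Figure D3:**
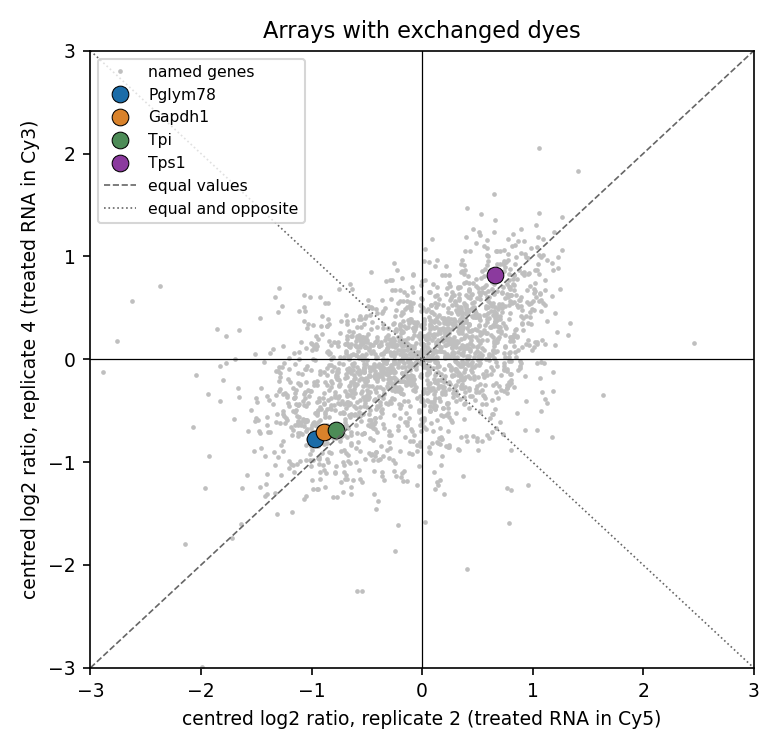
Centred log2 ratio on replicate 2 (horizontal) and on replicate 4 (vertical), where the dyes were exchanged, for named genes (grey points) and the 4 enzyme genes; 7 named genes lie outside the axes. All 4 enzyme genes lie near the line of equal values and away from the line of equal and opposite values.

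The other enzymes of glycolysis were taken from a list of 18 genes, of which 12 had spots, 9 had a value and 7 had a value in all 3 sets. The 4 genes beside the chosen ones were each negative in all 3 sets, as were 27.0% of all units. After the position correction only Hex-C of these 4 was negative in all 3 sets, while Hex-A, Ald1 and Pgk had sets of both signs. In the centred values none of the 4 passed with limma (0 of 4 at an adjusted p below 0.05 and 0 at an unadjusted p below 0.05, where 34.4% of the 4002 units were). Hex-A, a hexokinase, had a mean of -0.38 ± 0.34 and read -0.26 for the shared set, -0.76 for replicate 2 and -0.12 for replicate 4. Pgk, phosphoglycerate kinase, which acts between Gapdh1 and Pglym78, read -0.16, -1.09 and -0.14, with a mean of -0.46 ± 0.54 that came mostly from replicate 2. Hex-C, a second hexokinase, was at -0.15 ± 0.08, and the aldolase gene Ald1, whose product makes the substrate of Tpi, at -0.07 ± 0.02 (SD, n = 3 sets).

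Along the pathway Ald1 was thus close to 0, while Tpi, the next enzyme, was at -0.77. With the position correction the 2 were both near 0, at -0.03 for Ald1 and -0.06 for Tpi. The median of the 7 glycolytic genes was -0.46, and that of the 4 not chosen -0.27, against -0.03 over all units and -0.07 over all named genes. After the position correction these list medians were -0.10 and -0.06, against -0.03 over all units. Pgi, glucose 6-phosphate isomerase, had values in only 2 sets, which disagreed in sign (-0.93 in the shared set and 0.63 on replicate 2). CG7069, a pyruvate kinase family gene, was at -0.01 and 0.02 in the same sets. Spots of Pfk, Eno and Pglym87 had no value in any set.

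For trehalose and glycogen the list held 14 genes, of which 12 had spots and 5 had a value in all 3 sets. Beside Tps1, 0 of 4 passed with limma at an adjusted p below 0.05, and 1 at an unadjusted p below 0.05, where 34.4% of all units were. That gene was Tret1-2, a trehalose transporter gene, with 1.13 in the shared set and on replicate 2 but 0.38 on replicate 4. Its mean was 0.88 ± 0.44 (limma adjusted p = 0.0529). Its corrected mean was 0.65 ± 0.25, above that of Tps1. The related transporter gene Tret1-1 lay on the other side, at -0.44 ± 0.28, and was negative in all 3 sets.

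Treh, the trehalase gene whose product cleaves trehalose to glucose, read 0.33 in the shared set but -1.05 on replicate 2 and -0.98 on replicate 4. Its mean of -0.56 ± 0.78 was smaller than its spread. UGP, which makes the UDP-glucose used by Tps1, read -0.28, 0.09 and -0.81, a mean of -0.33 ± 0.45. The list median was -0.33, or -0.39 without Tps1. After the position correction it was 0.13, or -0.05 without Tps1, so its sign turned with Tps1 counted and not among the other 4 genes. The phosphatase genes CG5171 and CG5177, the listed gene CG6262, and the glycogen genes Glys, Glyp, CG9485 and Gyg had spots but no value in any set. Trehalose synthesis was therefore represented by Tps1 and its substrate enzyme alone.

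**Figure D4:**
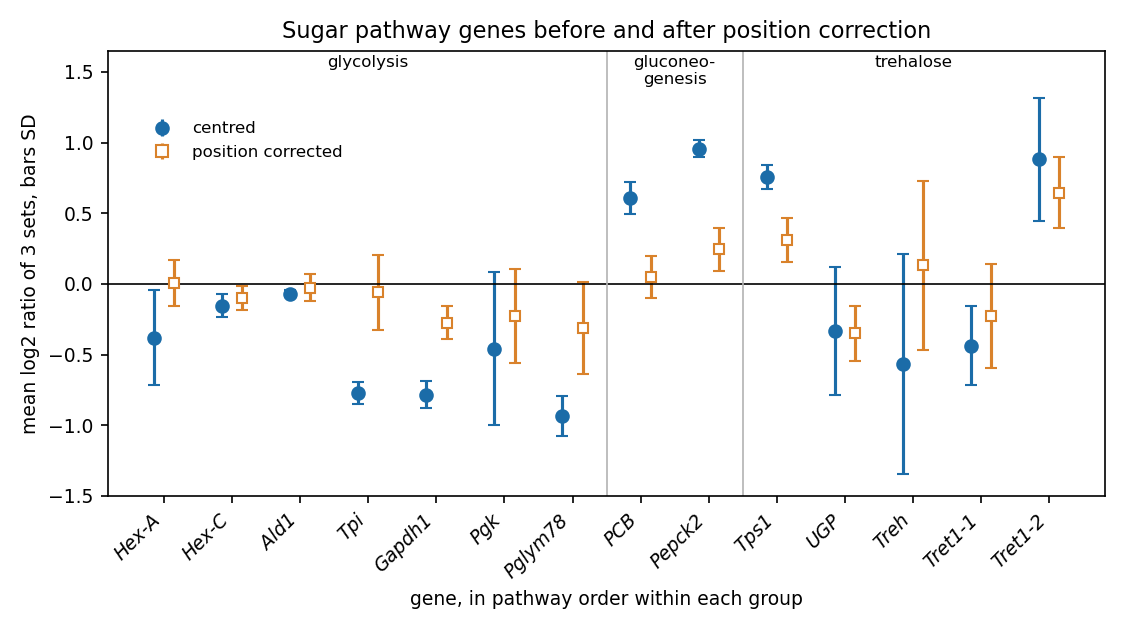
Mean log2 ratio of the 3 sets (vertical axis, bars SD) for genes of glycolysis, gluconeogenesis and trehalose metabolism, as centred values (filled circles) and after position correction (open squares). Corrected means of Tpi, Gapdh1, Pglym78, PCB, Pepck2 and Tps1 all lie nearer 0 than the centred means.

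In the centred values the 2 measured genes for enzymes at the entry of gluconeogenesis lay on the side of Tps1. Pepck2, a phosphoenolpyruvate carboxykinase gene, read 0.92, 0.93 and 1.03, a mean of 0.96 ± 0.06 (SD, n = 3 sets; limma adjusted p = 0.0402). PCB, pyruvate carboxylase, which supplies the oxaloacetate used by that enzyme, read 0.61, 0.72 and 0.49, a mean of 0.61 ± 0.11 (limma adjusted p = 0.0753). Of the 2 measured genes of that 11-gene list 1 thus passed on the positive side, where 8.60% of all units did. Corrected for position the means were 0.24 for Pepck2 and 0.05 for PCB. PCB then had sets of both signs, at -0.12 for the shared set, 0.17 for replicate 2 and 0.09 for replicate 4.

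Pepck2, PCB, Tps1, Tret1-2 and Pglym78 all lacked a value on replicate 3. Spots without a value there had higher medians in general, 0.405, 0.36 and 0.26 in the order of the sets, against -0.06, -0.10 and -0.09 for spots with one. Tps1 lay above those medians and Pglym78 far below them. The part of this difference in the values of Tps1 was not tested.

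In the pathways around glycolysis limma passed 0 of 11 measured genes, and 0 at an unadjusted p below 0.05, against 34.4% of all units. In the pentose phosphate list (2 measured genes) Taldo, transaldolase, was at -0.44 and CG8036 at 0.30. Of 5 measured genes of pyruvate entry and the citric acid cycle, Idh3a, a subunit of isocitrate dehydrogenase, was at -0.38, SdhC at 0.23, SdhD at -0.15 and Mdh1, cytosolic malate dehydrogenase, at 0.05. Their list median was -0.05. After the position correction it was -0.13, with means from -0.70 for Mdh1 to 0.12 for Idh3a. Taldo was then at -0.56 and CG8036 at 0.34. Regulators of sugar metabolism (4 measured) had a median of -0.23 and differed between sets, as for sima, the hypoxia factor, at 0.03, -0.18 and -1.10. The insulin-regulated factor foxo was at -0.37, the insulin-like peptide gene Ilp2 at -0.10 and sug, a sugar-responsive factor, at -0.03. Corrected for position, the regulators had a median of -0.17, with means from -0.51 for Ilp2 to 0.02 for sima.

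Markers of cells that use or make these sugars were set beside the results. Of 7 measured head fat body genes 1 was positive in all sets, Fbp2, at 0.76 ± 0.03 (limma adjusted p = 0.0472), close to Tps1. It was the 1 gene of the 7 that passed with limma, where 8.60% of all units passed on the positive side. After the position correction the mean of Fbp2 was 0.39 ± 0.17 (SD, n = 3 sets). The 1 gene negative in all sets was Yp2, at -0.26 for the shared set, -0.47 for replicate 2 and -4.16 for replicate 4. Its mean of -1.63 thus came mostly from replicate 4. Mtp was at 0.31 and fon at -0.22, both with sets of unlike sign. The list median was -0.17, or -0.11 after the position correction. Muscle genes, from a tissue rich in glycolytic enzymes, had a median of -0.28 over 7 genes, with Mlc2 at -0.80, Act88F at -0.69, Mlc1 at -0.52 and Act87E at 0.32. A common sign in all sets was seen for 6 of these 7, negative in 3 and positive in 3. Over all units 27.0% were negative and 28.5% positive in all sets. Limma passed 0 of the 7 muscle genes (3 at an unadjusted p below 0.05, a share near the 34.4% of all units). After the position correction their median was -0.04, with Mlc2 at -0.54, Act88F at 0.16, Mlc1 at -0.10 and Act87E at -0.04. Glial markers had a median of -0.02 over 3 genes (Gs2 at -0.72, Gli at 0.28, drpr at -0.02). Photoreceptor markers had a median of -0.02 over 5 (rdgB at 0.64, rdgA at 0.49, Galphaq at -0.44, inaD at -0.19). The neuronal gene nSyb was at -0.34. After the position correction the glial median was 0.02 (Gs2 at -0.34, Gli at 0.02, drpr at 0.20). The photoreceptor median was then -0.13 (rdgB at 0.22, rdgA at -0.13, Galphaq at -0.16, inaD at -0.17), and nSyb was at -0.56. The part of fat body or muscle in the values of the 4 enzymes was not tested.

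Genes with the values most like each enzyme were found by Euclidean distance over the 3 centred sets among 1979 named genes outside the lists. For Pglym78 these were Lon, a mitochondrial protease gene, at a distance of 0.0541, CG14856 and CG7768. For Gapdh1 they were Pdf, the clock neuropeptide gene, at 0.105, CG14856 and frc. Tpi was nearest to CG14856 at 0.106, CG9399 and the kinase gene Csk. Tps1 was nearest to ct, a homeodomain factor gene, at 0.103, Plod and CG7282. With 3 values per gene such likeness describes these sets only.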

How the data were processed

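RNA of treated and control heads was compared on 4 two-colour spotted cDNA arrays. The authors deposited 1 value per spot and array, taken here as a log2 ratio. Per the series' design text, GenePix Pro quantified the images, Acuity applied a ratio normalization, and spots were filtered on saturation, flags, uniformity and signal to noise. Log base, centring, direction and channel brightness are not given in the text and table used, and the number of arrays limits precision.

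Of 27648 spots, 15116 had 1 gene symbol, 102 several and 12430 none; IDs of 14894 matched RefSeq genes of assembly Release 6, which changed 0 symbols. No build is named, so no coordinates are given. Identical replicates 1 and 3 entered once as their mean, each set was centred on its median over spots, and spots were averaged by symbol, or by neighbouring pair where unnamed. Limma 3.58.1 (R 4.3.3) tested the mean of the 3 sets against 0 and, with a treatment code of 0 for the shared set, the difference between replicates 2 and 4 divided by 2 (1 residual degree of freedom per unit). P-values were two-sided with Benjamini-Hochberg adjustment over 4002 units and a threshold of 0.05. They reflect spread between sets and not between animals. Limma draws each unit's variance toward a value shared by all units, so SEs and p-values do not rest on the unit's own spread alone. Ald1, for example, had an SD over sets of 0.02 and a limma SE of the mean of 0.19. The fits were tested on simulated data.

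Position was corrected by subtracting each block's median and a robust loess over rows and columns (span 0.4, blocks with at least 30 values), with the layout taken from the order of spot numbers. Alternatives changed the centring, scaling, averaging, threshold, required sets and replicates. Named genes are the 4 enzymes, every measured gene of the glycolysis and trehalose lists, up to 4 genes of largest absolute mean in other lists, and the 3 nearest genes per enzyme. The 4 genes and all lists were chosen with earlier results of these data known.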

Additional observations from a re-analysis of the deposited data

How the results depend on the processing

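With 3 distinct sets and no channel intensities, the precision of single genes is limited, and no setting turned the sign of a mean of the 4 enzymes. Without centring the means were -1.31 for Pglym78, -1.16 for Gapdh1, -1.15 for Tpi and 0.381 for Tps1. With block medians alone subtracted they were -0.232, -0.359, -0.259 and 0.360 in the same order, and with the local regression as well -0.312, -0.274, -0.0585 and 0.311. The third Gapdh1 spot alone gave -0.8995. The other 51 recomputed means moved by less than 1 SD over sets. They include leaving out each replicate in turn, except that Pglym78 and Tps1, with no value on replicate 3, have no mean of 3 sets without replicate 1. The difference between replicates 2 and 4 divided by 2 changed sign under 13 of the recomputations for the 4 genes. For Pglym78, Gapdh1, Tpi and Tps1 it was 0.0250, 0.03, 0.0748 and 0.0418 without centring. Scale normalization gave 0.0375, 0.0312 and 0.0658 for the first 3, and quantile normalization 0.0101 for Gapdh1 and 0.0509 for Tpi. Block medians alone gave 0.136 for Pglym78 and 0.0523 for Tpi, and with the local regression 0.107 and 0.0102. The median of the trehalose and glycogen list turned positive with block medians subtracted (0.135) and with the local regression (0.132).

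The count of units past the threshold in the mean of the sets, 425 in the fit reported, was 0 without centring (1493 at an unadjusted p below 0.05), 164 with scale normalization, 10 with block medians and 0 with the local regression. It was 668 without spots beyond 3, 1050 at a threshold of 0.10, 901 with all 4 columns as labelled and 214 among named genes only. Without the shared set it was 0 (1090 at an unadjusted p below 0.05), and leaving out 1 replicate gave 2 (without replicate 2) to 422 (without replicate 3), with 41 without replicate 4 and 64 without replicate 1. Centring replicates 1 and 3 apart, added after seeing the data, gave 350. For the difference between replicates 2 and 4 the count of 0 became 11 without centring, 1 without replicate 1 and 2 without replicate 3; without replicate 2 or 4 it has no residual degrees of freedom. Each array sets a treated pool against its own control pool, so each ratio is already a paired comparison and no further pairing was made. The cause of these changes was not tested.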
